A study of Mus musculus with 2 samples.

Results

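Transcripts of 4 transcription factor genes of the endoderm, Sox17, Sox7, Hnf4a and Foxa2, were examined in mouse embryos at E3.75, the blastocyst stage. They were taken by symbol from a deposited table of 19559 genes, and all 4 are in it. The study had 2 samples, 1 library from whole blastocysts and 1 from inner cell masses (ICMs) freed from the outer cells by immunosurgery, in which antibody and complement lyse the outer layer. Both were from embryos of B6CBAF1 mothers and CD-1 fathers, and the labels name no mutant allele and no treatment. The whole blastocyst holds its own ICM, so the samples overlap in content. The number of embryos per library was not given in the sources used here.

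A blastocyst has an outer trophectoderm, which builds the placenta, and an ICM of epiblast and primitive endoderm precursors. Primitive endoderm cells give rise to the visceral and parietal endoderm of the yolk sacs. FGF signalling and GATA6 start their programme, and GATA4, SOX17 and then SOX7 follow as the cells mature and sort to the cavity side. SOX7 and SOX17 are, with SOX18, the F group of the SOX family, whose members bind DNA through an HMG box and also act in endothelium and, for SOX17, in definitive endoderm. HNF4A is a nuclear receptor and FOXA2 a forkhead factor, both known from the liver and both active in visceral endoderm.

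Hnf4a is shown by its starts, because RefSeq (GRCm38.p6, whereas the files use mm9) gives it 2, while the deposited table has 1 row for the gene. No source used here says which transcripts that row counts. The windows are the 250 bases before each start on the plus strand, chr2:163506607-163506856 and chr2:163546905-163547154, 40298 bases apart. Capitals mark a match to AGATAA, a motif bound by GATA factors.
Hnf4a, upstream start: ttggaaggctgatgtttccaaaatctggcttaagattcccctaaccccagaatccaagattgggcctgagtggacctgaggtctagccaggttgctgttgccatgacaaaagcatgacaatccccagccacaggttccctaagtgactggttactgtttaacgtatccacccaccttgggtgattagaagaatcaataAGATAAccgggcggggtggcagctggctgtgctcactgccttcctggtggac
Hnf4a, downstream start: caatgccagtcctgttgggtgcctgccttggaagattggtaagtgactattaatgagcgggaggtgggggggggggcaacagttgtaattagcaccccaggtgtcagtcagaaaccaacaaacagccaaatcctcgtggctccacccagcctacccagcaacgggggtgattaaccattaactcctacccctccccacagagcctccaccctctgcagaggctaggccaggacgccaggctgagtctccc
On both strands, AGATAA was found once in the upstream and not in the downstream window, and 9.99% of 32851 windows of this length hold it. The windows were also searched for AACAAT (SOX, held by 9.42% of windows), TGTTTAC (FOXA, 3.17%) and CAAAGTCCA (HNF4, 0.384%), with no match in either. Of the 3 Foxa2 windows, 1 held AGATAA and none held the other motifs. Promoters of Sox17 and Sox7 are not used here.

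Reads on listed genes numbered 9271198 for the whole blastocyst and 4125479 for the ICM. RPKM (reads per kilobase of gene, scaled to a library's total) was used as deposited. Most genes had lower RPKM in the ICM: over the 3013 genes at or above an RPKM of 5 in each library the median difference, log2((ICM RPKM + 1)/(whole-blastocyst RPKM + 1)), was -0.66. Values after centring on this shift, with ratios 1.58 times those deposited, are given as well. Counts of genes past 2-fold, before and after centring, are taken on this log2 scale with its pseudocount of 1, which understates the change of low genes, so a gene counted within 2-fold can have a ratio of RPKM past it. Folds of single genes are ratios of RPKM. Of 13 trophectoderm markers, the ICM library had all 13 past 2-fold on the lower side (12 after centring). Of 13 epiblast markers it had 9 past 2-fold on the higher side (12 after centring). Both lists went in the direction the sample labels give. Among all 8981 genes that passed the filter described below, 44% were past 2-fold lower and 8.96% higher (20.5% and 16.9% after centring). The lower count of markers as deposited therefore includes the general shift. There is no replicate, and hence no test and no p-value. Intervals are exact 95% counting intervals of these 2 libraries, and since no molecular identifiers are named for the amplified cDNA they cover counting error only. In bulk RNA, fewer cells of a type and less RNA per cell cannot be told apart.

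Sox17 and Hnf4a were read in both libraries and differed in their ratios, while Sox7 and Foxa2 had too few reads to be told apart. Sox17 was low in the whole blastocyst and 14.2-fold higher in the ICM. Hnf4a was read well in both libraries, at levels within 2-fold. Sox7 gave 3 reads over both libraries, and Foxa2 gave none. Of the 4, 2 genes (Sox17 and Hnf4a) reached an RPKM of 1 in a library, the filter used for counts. Of these, 1 passed 2-fold on the higher side in the ICM and none on the lower. Over all 8981 genes that passed the filter, the higher side held 8.96% and the lower 44% (16.9% and 20.5% after centring). A gene that passed through 1 library alone, as Sox17 did through the ICM, was let in where it is high. Such counts past 2-fold are therefore descriptions only.

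**Figure D1:**
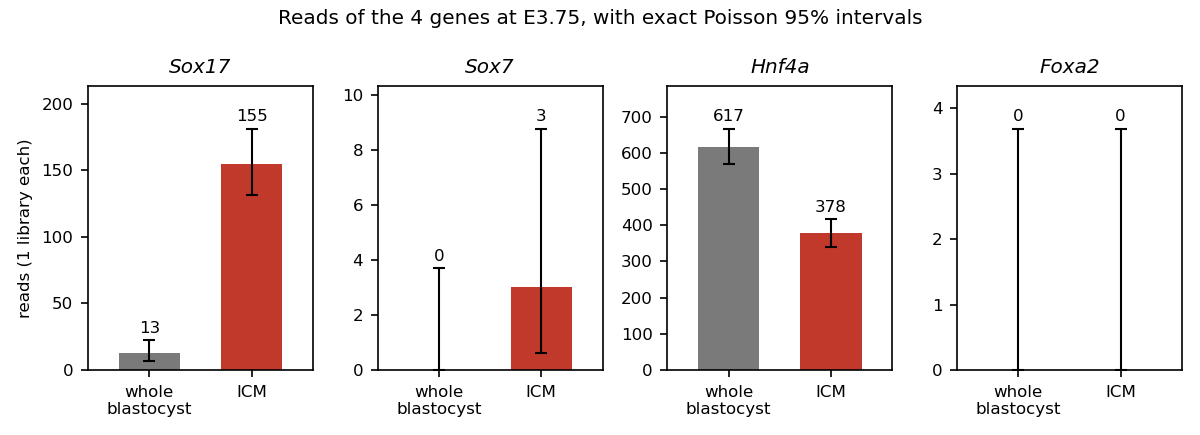
Reads of each gene in the 2 libraries (bars; vertical axes differ and start at 0), with exact Poisson 95% intervals as error bars. Sox17 has 13 reads and, in the smaller ICM library, 155, Hnf4a has 617 and 378, Sox7 has 0 and 3, and Foxa2 has none.

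Sox17 had 13 whole-blastocyst reads, an RPKM of 0.166 (0.0884 to 0.284). In the ICM it had 155 reads, an RPKM of 2.35 (1.99 to 2.75). The intervals do not overlap. The ratio was 14.2 as deposited (8.04 to 27.2) and 22.3 after centring (12.7 to 42.9). On the log2 scale with the pseudocount the difference was 1.52, above that of 95.9% of the genes that passed the filter. Sox17 passed through its ICM value alone, so this rank is partly set by the filter. The place of Sox17 among detected genes also differed between the libraries. It had a higher RPKM than 17.8% of the genes with a read in the whole blastocyst and than 56.4% in the ICM.

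Sox7, which follows Sox17 in primitive endoderm, was without a read in the whole blastocyst, with 3 in the ICM, an RPKM of 0.0266 (0.00548 to 0.0777). Both values lie at or under the floor of 3 reads used here, so no ratio is given, and the 2 libraries set no order for this gene. It was 1 of 683 listed genes with 1 to 3 ICM reads and no whole-blastocyst read. Within the ICM, per length, the RPKM of Sox17 was 88.4 times that of Sox7 (29.7 to 433). The length behind RPKM was 1.71 times as long for Sox7 as for Sox17, whereas their longest GENCODE transcripts differ by 1.02 times, so this comparison of levels depends on lengths left unstated in the table. Sox18, the other F group gene, had no read in either library. Handling of multiply mapped reads was not given in the sources used here, so reads shared by these paralogs could be split between them.

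Hnf4a had 617 whole-blastocyst reads, an RPKM of 4.63 (4.28 to 5.01). In the ICM it had 378 reads, an RPKM of 3.37 (3.04 to 3.73). The order of the libraries depended on the scaling: the ratio of ICM to whole blastocyst was 0.727 as deposited (0.638 to 0.828) and 1.15 after centring (1.01 to 1.31). Either way it stayed within 2-fold. Hnf4a had a higher RPKM than 60.3% of detected genes in the whole blastocyst and than 63.04% in the ICM.

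Foxa2 had no read in either library. The floor of 3 reads is a share of 3.24e-05% of the listed-gene reads in the whole blastocyst, and 7.27e-05% for the ICM, and the exact two-sided 95% limit for a count of 0 is 3.69 reads. In all, 5529 listed genes (28.3%) had no read in either library. Foxa2 was therefore not detected at this depth, and low depth and lack of transcript cannot be told apart. An RPKM limit cannot be given because its length in the table is not known without a read.

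In RPKM, Hnf4a was 27.9 times Sox17 in the whole blastocyst and 1.43 times Sox17 in the ICM. The order of the 4 genes in the ICM was Hnf4a, Sox17, Sox7 and Foxa2, and the intervals of Hnf4a and Sox17 do not overlap, while 3 reads and none do not order Sox7 and Foxa2. Hnf4a against Sox17 also rests on deposited lengths, that of Hnf4a being 1.7 times that of Sox17, where the longest GENCODE transcripts differ by 1.35 times. A comparison of 2 genes' ratios is free of both the lengths and the scaling between libraries: the ratio of Sox17 was 19.5 times that of Hnf4a (10.8 to 37.8).

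**Figure D2:**
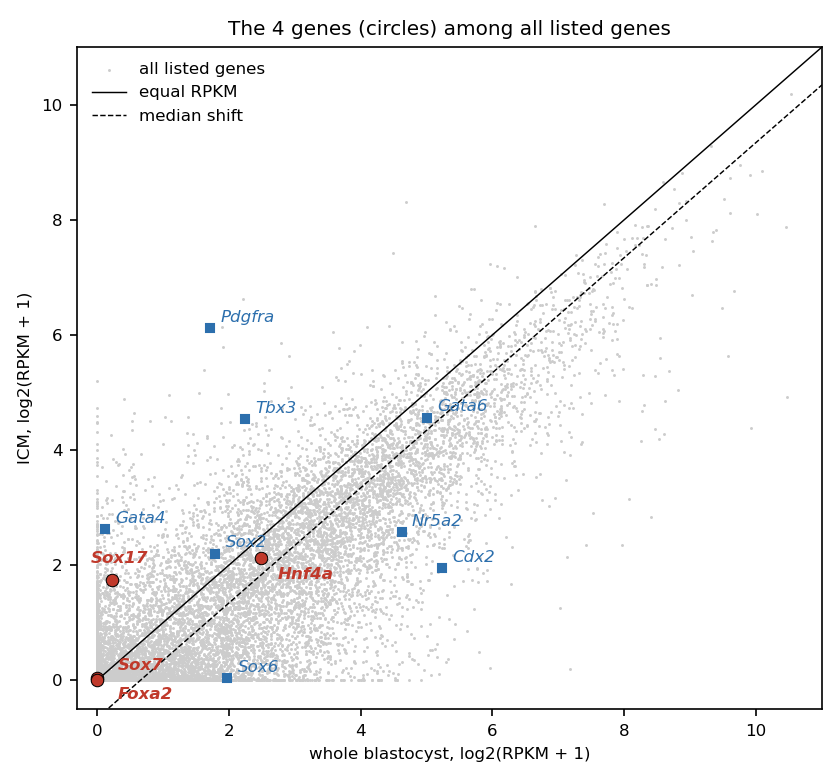
RPKM of all listed genes in the whole blastocyst (horizontal) and the ICM (vertical), both as log2(RPKM + 1). The solid line marks equal RPKM and the dashed line the median shift of -0.66. Sox17 lies above both lines, Hnf4a between them, and Sox7 and Foxa2 at the origin, while squares show other lineage genes.

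Strand use in counting was not given in the sources used here, so reads of a gene and of a transcript antisense to it cannot be told apart. GENCODE M21 places Gm37587 on the strand opposite Sox17, and the span of Gm37587 covers 804 of the 4772 exonic bases of Sox17. Hnf4aos lies opposite Hnf4a, and its span covers 180 of 4828 exonic bases. Neither Sox7 nor Foxa2 overlaps another annotated gene.

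The rest of the SOX family places Sox17 among its relatives. All 19 SOX genes on the list are in the table, and 7 reached an RPKM of 1. Past 2-fold were Sox17 and Sox30 on the higher side in the ICM and Sox6 and Sox15 on the lower, 2 of the 7 each (3 higher and 1 lower after centring). The median difference was -0.08, compared with -0.84 over all genes that passed. Of those genes, 8.96% were higher and 44% lower (16.9% and 20.5% after centring). Sox17 made up 1.65% of the family's summed RPKM in the whole blastocyst against 21.9% of that in the ICM, where Sox2 alone stood above it.

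In the ICM Sox2, the pluripotency factor, led the family with an RPKM of 3.60 (3.22 to 4.01), followed by Sox17 at 2.35 and by Sox30, known from the testis, at 1.45 (1.10 to 1.89). These 3 intervals do not overlap. The order and the share of Sox17 rest on its deposited length, and with a length 1.71 times as long, the factor by which that of Sox7 exceeds it, Sox17 would fall below Sox30. Sox13 (0.974) and Sox21 (0.917) came next, and their intervals do overlap. That of Sox13 (0.743 to 1.25) also overlaps the interval of Sox30, so these neighbours are not ordered either. In the whole blastocyst Sox17 stood after Sox6 at 2.94, Sox2 at 2.47, Sox15 at 1.72, Sox13 at 1.71 and Sox21 at 1.03. The intervals of Sox6 and Sox2 overlap there. Sox15 rests on 13 reads, and its interval (0.915 to 2.94) overlaps those of Sox6, Sox2, Sox13 and Sox21. Its place among them is therefore not set.

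By the ratio of RPKM, Sox6 differed more between the libraries than Sox17, in the other direction. On the log2 scale with the pseudocount the differences were -1.95 and 1.52, and after centring, at -1.29 and 2.18, that of Sox17 was the larger. Sox6, a D group factor known from cartilage and red cells, went from 777 reads to 5 in the ICM, a level 131-fold lower (55.9 to 404). Sox30, unread in the whole blastocyst, had 56 ICM reads, at least 22.2-fold higher at a floor of 3 whole-blastocyst reads (17.4-fold by the exact limit). Sox15 had 13 and 2 reads, and its ratio of 0.183 (0.0200 to 0.807) rests on few reads. After centring it was 0.288 (0.0316 to 1.27), an interval that includes 1. Sox2, with 273 and 335 reads, was within 2-fold as deposited, at a ratio of 1.46. After centring its ratio was 2.30 (1.95 to 2.71), and it was then counted on the higher side. The ratio of Sox17 was 9.72 times that of Sox2 (5.35 to 19.04). Sox9, Sox11 and Sox12 stayed under an RPKM of 1 but were read almost only in the ICM. Their reads were 0 and 42, 1 and 98, and 0 and 63. Sox9 was at least 16.6-fold higher there at the floor (12.9-fold by the exact limit) and Sox12 at least 24.9-fold (19.7-fold). Sox11 was 116-fold higher (20.4 to 4641). With the floor used for counts of 0, these genes and Sox30 stood above the ratio of 14.2 of Sox17, with overlapping intervals. A higher ICM level was thus not particular to Sox17 in its family.

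Hnf4a and Foxa2 belong to the transcription factors enriched in liver, a list of 16 genes, all in the table. Of these, 6 reached an RPKM of 1: the ICM had 1 at least 2-fold higher, 3 lower and 2 within 2-fold, Hnf4a among the last (1 higher and 1 lower after centring, though the centred ratios of all 3 lower genes stay past 2-fold). The median difference was -0.998, close to that of all genes. Shares over all genes that passed were 8.96% higher and 44% lower (16.9% and 20.5% after centring). Tbx3, a T-box factor of the ICM and of the liver bud, had 331 and 1652 reads and was 5.92-fold higher in the ICM (5.26 to 6.69). Nr5a2, the nuclear receptor LRH-1, had 2259 and 398 reads and was 4.78-fold lower (4.30 to 5.33). Cebpa, a bZIP factor, was 5.13-fold lower (4.09 to 6.50), and Nr1h4, the bile acid receptor FXR, had 43 reads and none, at least 12.1-fold lower at the floor (9.41-fold by the exact limit). Hhex, a homeobox gene of the anterior visceral endoderm and the liver, had 66 and 23 reads, and although counted within 2-fold its RPKM as deposited was 2.42-fold lower (1.48 to 4.07). After centring its ratio was 0.653 (0.387 to 1.06), an interval that includes 1.

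In the whole blastocyst Hnf4a (4.63) came next after Nr5a2 (23.6), and its interval overlaps that of Cebpa at 4.51. In the ICM it stood after Tbx3 (22.1) and Nr5a2 (4.94) and before Cebpa (0.879), with no overlap of these 4 intervals. The closest relatives of the 2 hepatic genes had few reads. Hnf4g, the paralog of Hnf4a, had no read. Of the FOXA genes, Foxa1 had 58 whole-blastocyst reads against no ICM read, at least 16.3-fold lower at the floor (12.8-fold by the exact limit), and Foxa3 had 26 and none, at least 7.30-fold lower (5.53-fold). Foxa2 was the FOXA gene without a read in the whole blastocyst.

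Genes of FGF and PDGF signalling, inhibitors of it among them, included some higher and some lower in the ICM. In the list of signals that direct primitive endoderm, 15 of 16 genes passed the filter, of which the ICM had 4 at a level at least 2-fold higher and 5 lower (4 and 3 after centring). The median was -0.57. Over all genes that passed, 8.96% were higher and 44% lower (16.9% and 20.5% after centring). No result about these signals is therefore read from the lower counts. Pdgfra, the receptor that marks primitive endoderm, was 29.8-fold higher in the ICM, while Pdgfa, its ligand, was 4.59-fold lower (4.12 to 5.12). Spry4, an inhibitor of FGF signalling, had 11 and 621 reads. Dusp4, an ERK phosphatase, was 7.72-fold lower (6.39 to 9.41). The ratio of Sox17 was below that of Pdgfra, at 0.476 of it (0.267 to 0.923).

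Among the other primitive endoderm transcription factors, 6 of 7 passed, and the ICM had 4 of them at least 2-fold higher and none lower (5 and none after centring), with a median of 2.26. For all genes that passed, the shares were 8.96% higher and 44% lower (16.9% and 20.5% after centring). Gata4 had 6 and 320 reads, an RPKM of 0.0815 and 5.16. Cited1, a transcriptional coregulator, had 2 and 94 reads. Creb3l2, a factor of the secretory pathway, had 78 and 1209, and Foxq1, a forkhead gene, had none and 388, at least 154-fold higher at the floor (124-fold by the exact limit). Gata4, Cited1 and Foxq1, like Sox17, passed the filter through the ICM alone. Sox17 lay with the higher genes of this list in direction, but its ratio was 0.224 that of Gata4 (0.0686 to 0.647).

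Hnf4a had a ratio close to that of Gata6 instead, but other genes lay there too. After centring, the differences of Hnf4a and Gata6 were 0.29 and 0.21, above those of 66.6% and 63.9% of the genes that passed. Grb2 (0.795), Zfp42 (0.777) and Fbxw2 (0.753) had ratios near that of Hnf4a (0.727). The likeness is thus not particular to this pair. Gata6, the first GATA factor of the lineage, had 1852 and 1134 reads, an RPKM of 31.2 and 22.7. The ratio of Hnf4a was 1.001 times that of Gata6 (0.860 to 1.16), and Gata6 was 6.73 times Hnf4a in RPKM in the whole blastocyst and 6.72 times Hnf4a in the ICM. The ratio of Hnf4a was 9.36 times that of the trophectoderm factor Cdx2 (7.48 to 11.7) and 0.208 that of the pluripotency factor Pou5f1 (0.172 to 0.252). The ratio of Sox17 was 4.05 times that of Pou5f1 (2.26 to 7.90). The 2 genes stood on different sides of Pou5f1, and both stood above Cdx2 in the plot of ratios.

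**Figure D3:**
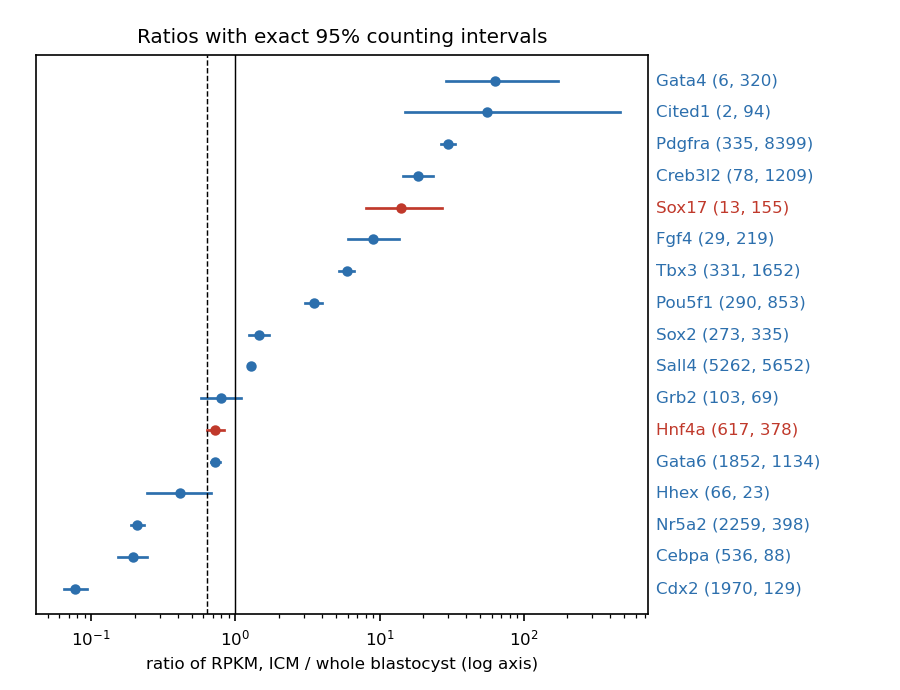
Ratio of RPKM, ICM over whole blastocyst (log axis), with exact 95% counting intervals as lines. Reads in the whole blastocyst and the ICM are in parentheses, the solid line marks 1 and the dashed line the median shift. Sox17 (14.2) lies among the genes high in the ICM, between Creb3l2 and Fgf4, and Hnf4a (0.727) lies beside Gata6.

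Products of endoderm cells were described in 3 lists. Of 20 genes of extraembryonic endoderm surface and matrix, 18 passed, of which 13 were past 2-fold on the higher side in the ICM and 3 on the lower (15 and 3 after centring), with a median of 1.78. Among all genes that passed, 8.96% were higher and 44% lower (16.9% and 20.5% after centring). On the log2 scale with the pseudocount, Pdgfra and Serpinh1, a collagen chaperone, were farthest on the higher side. By the ratio of RPKM, Srgn, a proteoglycan with 2 and 92 reads, stood above both at 54.6-fold (14.7 to 458). Of the higher genes, Srgn, Hspg2 and Aqp8 passed the filter through the ICM alone, and of the lower, Nid2 through the whole blastocyst alone. The lower genes were Lrp2, the receptor megalin, at 93.1-fold, its adaptor Dab2 at 21.3-fold, and Nid2, a basement membrane protein with 362 reads and none, at least 102-fold lower at the floor (82.3-fold by the exact limit). Of the 21 visceral endoderm genes, which include known targets of HNF4A and FOXA2, 8 passed, 2 were higher and 1 lower (5 and none after centring), and 10 had no read in either library. Over all listed genes, 28.3% had no read in either. Genes of this list without a read include Afp, Ttr, Apoa2, Apob, Rbp4 and Trf, which encode secreted serum proteins. Other apolipoprotein genes went different ways: Apoa1 had 20 and 0 reads, Apoc2 38 and 26, and Apoa4 and Apom 0 and 9 each. Apom is 1 of the 2 higher genes and rests on its 9 reads. Of the genes that were read, Apoe, a lipoprotein component, had 154 and 201 reads, Mttp, which loads lipid onto lipoproteins, had 15 and 36, and Vil1, a brush border protein, had 54 and 3. Dkk1, a secreted Wnt inhibitor, had 14 and 115 reads and was 9.75-fold higher in the ICM (5.58 to 18.4).

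Of 9 parietal endoderm genes, 4 passed, with 2 higher in the ICM (Sparc and Lamb1, both also in the matrix list), 1 lower (Plat, 760 and 0 reads) and Krt19 counted within 2-fold. Shares over all genes that passed were 8.96% higher and 44% lower (16.9% and 20.5% after centring). Krt19 had 39 and 12 reads, and its RPKM was 2.74-fold lower (1.40 to 5.74).

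**Figure D4:**
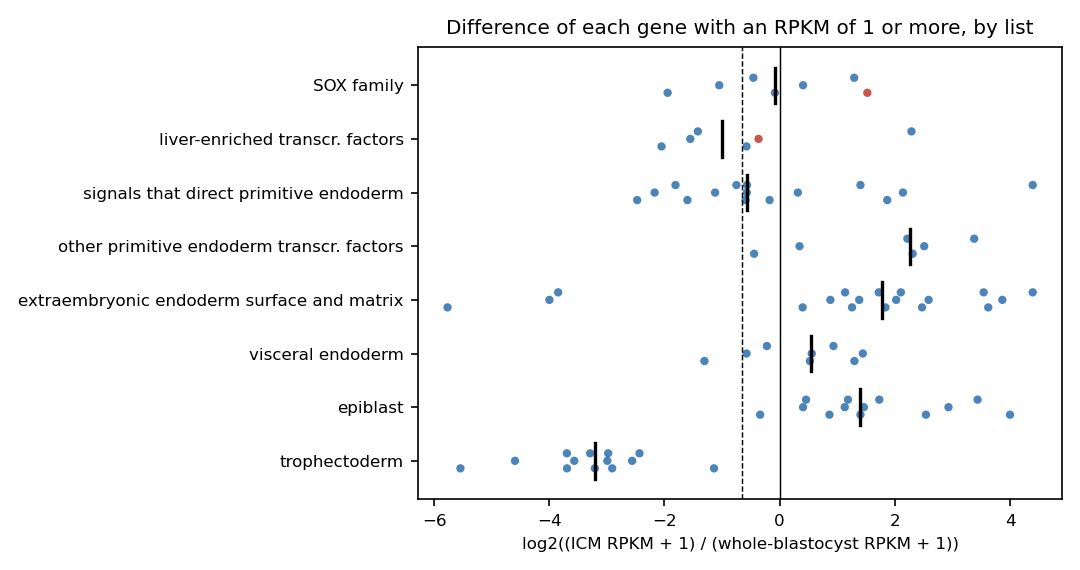
Difference of each gene that reached an RPKM of 1 in a library, by list, on the log2 scale with a pseudocount of 1. Red points are Sox17 (SOX family) and Hnf4a (liver-enriched factors), black bars are list medians, and the dashed line is the median shift. Sox17 (1.52) is the highest point of its family among the genes shown. By the ratio of RPKM, relatives such as Sox11 (not shown) and Sox30 stood above it. Hnf4a (-0.37) lies between the median shift and 0.

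Markers of other tissues, among them tissues that use these 4 factors, were described as well. Of all 19559 listed genes, 8981 passed the filter and 28.3% had no read in either library. Of those that passed, 8.96% were higher in the ICM and 44% lower (16.9% and 20.5% after centring). The counts below are descriptions only. Of 9 mesendoderm and definitive endoderm genes, 1 passed, Eomes, which trophectoderm also expresses. T, the Brachyury gene, had no read, Mixl1 had 0 and 4 reads and Cxcr4 had 1 and 0. Of 14 endothelial genes, 3 passed, 1 higher in the ICM and 1 lower. The higher one, Pecam1, which ICM cells also express, had 10 and 220 reads. The lower one, Tie1, a receptor of the angiopoietin pathway, had 25 and 0, and Egfl7, a secreted factor and the third to pass, had 9 and 25, a ratio of 3.30 (1.49 to 8.03). Tek had 28 and 2 reads, Tal1 0 and 35, and Cdh5 0 and 1, while Emcn, Esam and Erg had none. The summed RPKM of this list was 3.27 in the whole-blastocyst library and 9.05 in the ICM library, or 3.03 and 2.91 without Pecam1, and its part in the Sox17 result was not tested. Of 12 hepatocyte genes, 1 passed, Tat, with 126 and 307 reads, and Alb had 1 and 0. The summed RPKM of the hepatocyte list was 2.82 and 8.76, or 0.155 and 1.06 without Tat. Of 9 measured blood genes, 2 passed, with at most 50 reads in either library.

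Beside these results, the 13 trophectoderm markers had a summed RPKM of 1824 in the whole-blastocyst library and 60.6 in the ICM library, and the 13 epiblast markers one of 63.8 and 309. The share of trophectoderm RNA that remained in the ICM library and its part in the values of Hnf4a were not tested.

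The genes whose RPKM in the 2 libraries was nearest to that of Sox17, by Euclidean distance on log2(RPKM + 1), were Car8 (31 and 415 reads, distance 0.029), Irak3 (10 and 144, 0.058) and Itga1 (17 and 171, 0.071). Those nearest to Hnf4a were Fbxw2 (167 and 106 reads, distance 0.030), Mfap3 (924 and 542, 0.035) and Mastl (110 and 65, 0.039). With 2 libraries this likeness rests on 2 values per gene.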

How the data were processed

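RNA of 1 whole-blastocyst and 1 ICM library was extracted, amplified (NuGEN Ovation RNA-Seq) and sequenced as SOLiD fragment libraries, per the labels' protocols. The authors deposited 1 table of read counts and RPKM per gene, per the file headers. Reads were placed on mm9, as the submitters' processing notes have it. Aligner, annotation and strand use were not given in the sources used here. Depth was 9271198 and 4125479 reads on listed genes. The ratio of the totals behind RPKM, ICM to whole blastocyst (0.842), was read from RPKM per read, whereas that of listed-gene reads was 0.445. Scaled to listed-gene reads, the median difference over all genes that passed the filter was -0.13, against -0.84 as deposited. Why the 2 ratios differ was not tested.

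Ratios of RPKM carry exact conditional (Clopper-Pearson) 95% intervals from the counts, and ratios of 2 genes' ratios an exact conditional odds ratio interval (Python 3.11.15, scipy 1.17.1). A library without a read was set to a floor of 3 reads. The interval was tested on simulated Poisson counts. Differences used a pseudocount of 1 and, for counts of genes, a filter that asks for an RPKM of 1 in either library. Current symbols were matched to older ones through RefSeq (98.4% of listed genes matched).

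The 4 genes and the 13 other lists were chosen with earlier results of these data known. Genes were named by a rule: the 4 genes, every SOX and liver-enriched factor that passed the filter, up to 4 genes of every other list with the largest difference and 20 or more reads, and the 3 nearest genes. Other genes named were chosen after their values were seen. Some genes and sequences are not reported here. Alternatives were a pseudocount of 0.1, centring, scaling to listed reads, TPM and no filter.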

Additional observations from a re-analysis of the deposited data

How the results depend on the processing

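Sox17 was at least 2-fold higher in the ICM under every scaling and pseudocount tried, and no other of the 4 genes was counted past 2-fold under any of them or without the filter. Its difference of 1.52 became 3.20 with a pseudocount of 0.1 and 3.79 with TPM. Hnf4a stayed within 2-fold but its sign changed: -0.37 as deposited, 0.29 when centred, 0.39 when scaled to listed-gene reads and 0.48 with TPM. When centred, the genes at least 2-fold lower on the log2 scale with a pseudocount of 1 went from 3 to 1 among the liver-enriched factors and from 5 to 3 among the signals. The pseudocount enters the first of these: by centred ratio, Nr5a2 (0.330), Cebpa (0.307) and Nr1h4 (at most 0.168) all stay past 2-fold. Of the other list values, 131 stayed and 24 moved (a count by over 1.5 times, a median by 1 or more), and no median of 1 or more in size changed sign. Over all genes, 805 higher and 3950 lower as deposited became 1516 and 1838 when centred, 1718 and 2312 when scaled to listed-gene reads, 1978 and 2649 with TPM, and 1032 and 4599 with a pseudocount of 0.1. No paired analysis was possible because each group has 1 library. Sox7 and Foxa2 had too few reads for a difference to be given under any setting. The 13 whole-blastocyst reads of Sox17 set the width of its interval. The causes of these shifts were not tested.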
